A study of Mus musculus with 12 samples.

Results

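The genes of the nuclear pore and of nuclear transport were examined in mouse NIH3T3 cells, an established fibroblast line. They were chosen by name, as the genes whose only symbol in the platform annotation is a numbered nucleoporin, importin, exportin, transportin or karyopherin, or is Ran, Rcc1, Ranbp1, Ranbp2, Rangap1, Cse1l, Ndc1, Tpr or Aaas. This gave 49 genes of 18193 on the arrays, each read from its probe set with the highest mean level. Tpr and Nup35 were not analysed here. The 49 genes had 130 probe sets, and 37 of them had more than 1. On the log2 scale 47 lay above the level of the median gene (6.87), and Kpna7 and Nup210 lay below it.

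The study asked how cell density, the coactivator Yap and the transcription factor Tead2 act on gene expression, with 6 groups of 2 arrays. Tead2-VP16, which joins Tead2 to a viral activation domain, was expressed in cells at complete confluency and in proliferating cells slightly past the normal confluent density, called high density here. Yap was expressed in proliferating cells at that same high density. Tead2-EnR, which joins Tead2 to the Engrailed repression domain, was expressed in cells at low density, 30% of their own confluency. Control cells, infected with a control virus, were harvested at complete confluency and at 30% confluency. The labels do not give the promoter of the constructs, or say whether the cells were pools or clones and do not tie the 2 arrays of a group to separate cultures. The p-values therefore cover only how these arrays vary, which may be technical. The samples used here hold no control array at high density.

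The nuclear pore is a ring-shaped channel through the nuclear envelope, built from scaffold nucleoporins, membrane nucleoporins that anchor them, and channel, filament and basket nucleoporins that meet the cargo. Importins and exportins of the karyopherin family carry proteins and RNA through it. Their direction is set by the small GTPase Ran, which is charged with GTP in the nucleus by Rcc1 and made to hydrolyse it outside by Rangap1 with Ranbp1 and Ranbp2. Dividing cells must also build new pores, and several of these proteins act on the spindle and at kinetochores in mitosis.

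Across all genes, log2 levels of the 2 arrays of a group correlated with r between 0.9976 and 0.9986, and the largest gap between 2 such arrays over the 49 genes was 0.34. All 8 fibroblast markers measured lay above the median gene in every group. Of the 5 macrophage, 5 epithelial, 4 endothelial, 4 muscle and 3 adipocyte markers measured, only Csf1r, Epcam and Des did so. The probe set used for Yap1 averaged 9.66 in Yap cells and 9.96 in confluent control. The one used for Tead2 averaged 9.83 in Tead2-EnR cells and 9.62 in low-density control. In Tead2-VP16 cells it averaged 9.32 at high density and 9.76 at complete confluency, against 9.88 in confluent control. Whether these 2 probe sets read the introduced constructs is not given in the sources used here, so they check no label. Ccn2, a known Yap and Tead target, averaged 9.74 in Yap cells and 6.51 in confluent control, a difference of 3.23. The Yap cells were at high density, so construct and density cannot be told apart in that difference. Ccn2 averaged 11.60 in low-density control, above Yap cells by 1.86 and above confluent control by 5.10. In Tead2-VP16 cells it averaged 8.84 at high density, and at complete confluency 6.63, a difference of 0.12 from confluent control that was not called. The targets Ccn1 (0.99) and Ankrd1 (0.78) were called higher in that comparison. With Tead2-EnR against low-density control, Ankrd1 (-2.01), Ccn2 (-0.61) and Ccn1 (-0.59) were called lower. In bulk RNA, fewer cells with a transcript and less of it in each cell cannot be told apart.

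Density was compared first, in control cells at complete confluency and at 30% confluency. Confluent cells had lower transcript levels of most of the pore and of its transport receptors. Of the 49 genes, 39 were called lower and 1 higher at an adjusted p below 0.05, against 22.8% of all genes called lower, 26.1% called higher and 48.9% called either way. The median log2 fold change was -0.83 over the 49 genes and -0.01 over all genes. A called fall of at least 2-fold was found for 21 of the 49 genes. It was found for 944 of all 18193 genes, and for 828 of the 9096 above the median level. Among the 9096 genes above the median level 77.0% were called either way, 35.5% lower and 41.5% higher. Of the 49 genes 81.6% were called either way and 79.6% lower.

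The Ran cycle held the 2 largest falls of the 49 genes. Rangap1, the GTPase-activating protein of Ran, stood at 8.78 and 8.74 (log2 intensity, each array) in confluent control, against 10.81 and 10.77 in low-density control. The groups lay far apart, with a fall of 4.09-fold (log2 fold change -2.03, SE 0.06, limma adjusted p = 1.8e-09). Rcc1, the nucleotide exchange factor that loads Ran with GTP, stood at 8.22 and 8.33 in confluent control, against 10.21 and 10.28 in low-density control, a difference of -1.97. Ranbp1, which assists Rangap1, fell by 1.53 and Ran itself fell by 0.96 on the log2 scale. Ranbp2, the giant filament nucleoporin that binds Ran and attaches SUMO, was the exception. It stood at 10.09 and 10.01 in confluent control, against 10.01 and 10.04 in low-density control, and was not called (difference 0.02, 95% interval -0.14 to 0.18).

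The 7 genes of the Y complex that the naming rule takes in fell with density. The complex is the scaffold of the outer rings. Nup43 stood at 8.28 and 8.49 in confluent control, against 10.07 and 10.05 in low-density control, a difference of -1.68 (SE 0.09). Nup85 (-1.40), Nup37 (-1.34), Nup107 (-1.32), Nup160 (-1.16) and Nup133 (-1.10) fell by more than 2-fold as well. The smallest fall of these 7 was that of Nup98, whose transcript also encodes the scaffold protein Nup96. It stood at 8.78 and 8.73 in confluent control and 9.39 and 9.39 in low-density control (difference -0.64). Of the other genes of the complex, Seh1l was at -0.74, Ahctf1 at -0.47 and Sec13 at -0.32, all called lower.

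The 4 inner ring genes, which join the scaffold to the channel, fell too. Nup205, one of the large scaffold proteins, stood at 8.56 and 8.56 in confluent control, against 10.12 and 10.16 in low-density control, a 2.99-fold fall. On the probe sets used, Nup155 changed least in this class, at 8.83 and 8.91 in confluent control and 9.32 and 9.42 in low-density control (difference -0.50). Another probe set of Nup155, of lower level, was at -1.05. Nup188 was at -0.89 and Nup93 at -0.68. In the central channel, whose proteins carry the phenylalanine-glycine repeats that cargo receptors bind, Nup54 stood at 8.64 and 8.78 in confluent control, against 9.86 and 9.95 in low-density control. The difference was -1.19 for Nup54 and -0.78 for its partner Nup62, which stood at 10.86 and 10.90 in confluent control and 11.63 and 11.70 in low-density control.

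Membrane, filament and basket genes were less uniform. Ndc1, a transmembrane nucleoporin needed for pore assembly, stood at 9.15 and 9.14 in confluent control, against 10.86 and 10.85 in low-density control, a 3.27-fold fall (log2 fold change -1.71, SE 0.06, limma adjusted p = 8.0e-09). Nup210, the other membrane nucleoporin under the naming rule, is one of the 2 genes below the median level. It stood at 5.39 and 5.36 in confluent control and 5.56 and 5.56 in low-density control, and was not called. Among filament genes Aaas, which encodes the protein aladin, stood at 8.36 and 8.39 in confluent control, against 9.63 and 9.62 in low-density control (difference -1.25). Nup214 (-0.33) and Nup88 (-0.28), which sit together on the cytoplasmic face and assist export, fell much less. Nup88 stood at 9.76 and 9.76 in confluent control and 10.02 and 10.06 in low-density control. Both basket genes measured fell. Nup50, which helps release imported cargo, stood at 9.11 and 9.11 in confluent control, against 10.47 and 10.56 in low-density control (difference -1.41). Nup153, which anchors the basket, stood at 9.03 and 8.99 in confluent control and 10.18 and 10.11 in low-density control (difference -1.14).

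**Figure D1:**
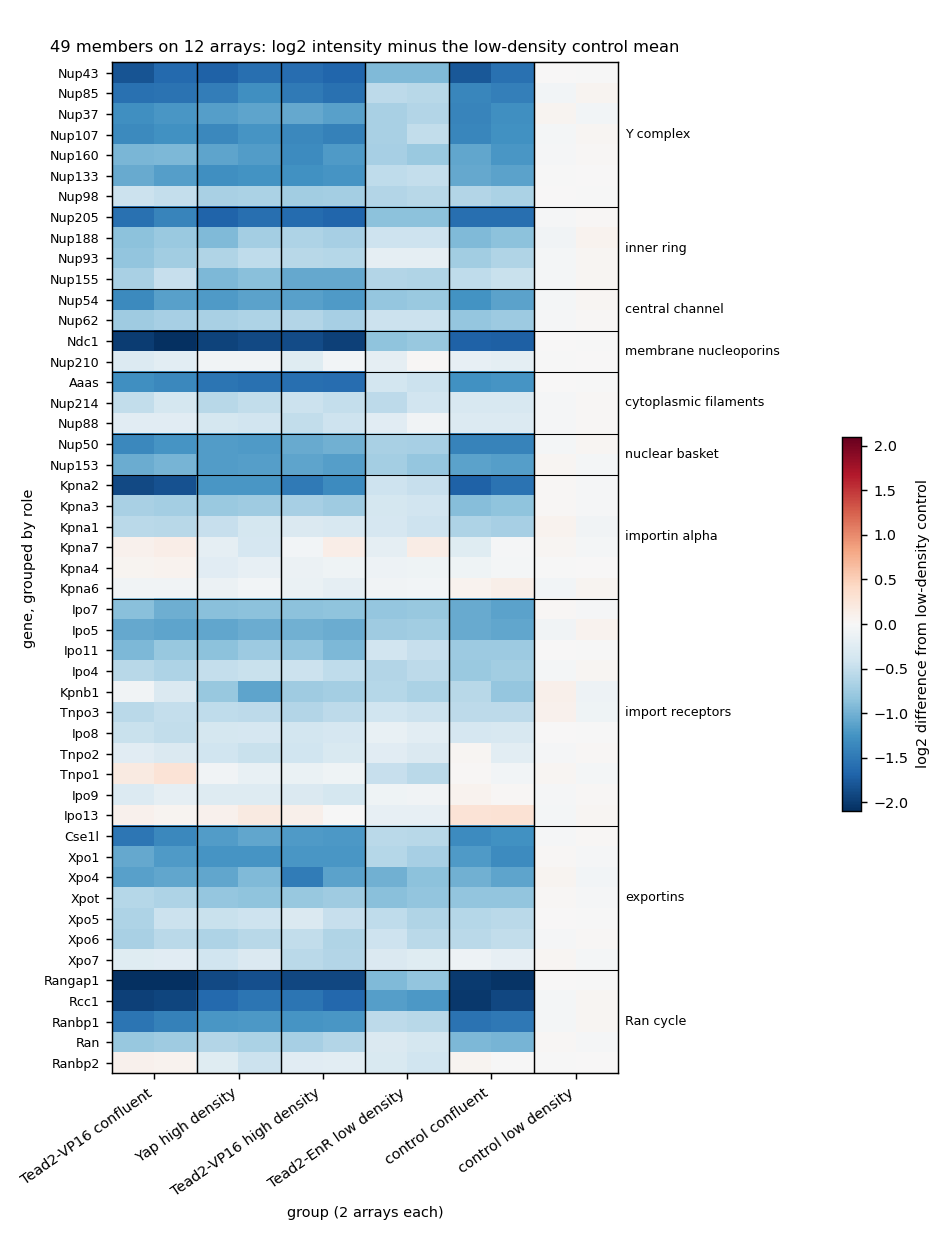
Log2 intensity of each of the 49 genes on the 12 arrays, as the difference from the mean of the 2 low-density control arrays (colour, blue lower and red higher), with genes grouped by role and 2 columns per group. Rangap1, Ndc1 and Rcc1 are among the darkest rows in confluent control, Tead2-EnR cells are paler than the groups at confluency or high density for most genes, and Kpna4, Kpna6 and Ipo13 stay near the low-density level.

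Importin alpha proteins bind the classical nuclear localization signal of cargo. Of their 6 genes measured, 3 fell with density and 3 were not called. Kpna2 stood at 11.00 and 11.14 in confluent control, against 12.72 and 12.68 in low-density control, a 3.1-fold fall (log2 fold change -1.63, SE 0.07). Kpna3 (-0.88) and Kpna1 (-0.67) fell as well. Kpna4, in contrast, stood at 10.27 and 10.32 in confluent control and 10.36 and 10.36 in low-density control, within 0.1 of each other on the probe set used. Its difference was -0.07, with a 95% interval of -0.18 to 0.05, and Kpna6 was at 0.10 (-0.03 to 0.22). Kpna7, known from oocytes and early embryos, lay below the median gene and was not called (-0.14).

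Import receptors of the importin beta family went both ways: 7 of 11 fell, 1 rose and 3 were not called. Ipo7, which carries ribosomal proteins and histones, stood at 11.29 and 11.22 in confluent control, against 12.36 and 12.33 in low-density control (difference -1.09). Ipo5 (-1.08), Ipo11 (-0.76), Ipo4 (-0.75), the general carrier Kpnb1 (-0.70), Tnpo3 (-0.55), which carries splicing factors, and Ipo8 (-0.34) also fell. Ipo13, which works in both directions, was the 1 gene of the 49 that rose. It stood at 10.94 and 10.95 in confluent control, against 10.61 and 10.69 in low-density control, a 1.23-fold rise (limma adjusted p = 0.0017). Tnpo1, the transportin of many RNA-binding proteins, stood at 10.45 and 10.36 in confluent control and 10.46 and 10.39 in low-density control, so its groups overlapped (difference -0.02). Ipo9 (0.04) and Tnpo2 (-0.09) were not called.

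Exportins fell in 6 of 7 cases. Cse1l, which returns importin alpha to the cytoplasm, stood at 9.74 and 9.79 in confluent control, against 11.04 and 11.09 in low-density control (difference -1.30). Xpo1, the main exportin of proteins with a leucine-rich export signal, fell by 1.25, Xpo4 by 1.06 and Xpot, the exportin of transfer RNA, by 0.83 on the log2 scale. Xpo5, which exports microRNA precursors, was at -0.58 and Xpo6, the exportin of actin, at -0.54. Xpo7 was not called, at 9.29 and 9.22 in confluent control and 9.43 and 9.35 in low-density control (difference -0.14).

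Other probe sets of the same genes were read as well. Of the 130 probe sets of these genes, 95 were called lower and 2 higher with density, and no gene had probe sets called in both directions. The share called over all probe sets of the arrays was not counted, so these counts have no background beside them. Probe sets of the same gene are also not independent of each other. Kpnb1 was lower on all 4 of its probe sets, from -0.70 on the one used here to -1.44, and Ran on all 6. The probe sets used for Kpnb1, Ran and Nup62 are of a type that may also bind related sequences. Those used for Nup43, Nup54, Nup107, Kpna1, Ipo9 and Tnpo3 are of a type whose probes may be shared by several transcripts. Tnpo1 was lower on its other 2 probe sets (-0.33 and -0.40). Ranbp2 was higher by 0.25 on its probe set of second highest level. Kpna4, Kpna6 and Ipo9, not called on the probe set used, were called lower on another of lower level (-0.75, -0.33 and -0.56), so what is said of them above holds for the probe set used.

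Array controls differed between the same 2 groups. The poly-A spike-in probe sets averaged 7.98 ± 0.10 in confluent control and 7.65 ± 0.08 in low-density control (log2, SD, n = 2). Probe sets at the 3′ end of the transferrin receptor control read above those at its 5′ end, a measure of RNA integrity and labelling, by 1.30 ± 0.19 in confluent control and 0.98 ± 0.05 in low-density control. The same gap for actin was 0.234 ± 0.017 in confluent control and 0.081 ± 0.007 in low-density control, and that for Gapdh was -0.280 ± 0.031 in confluent control and -0.231 ± 0.006 in low-density control. Of the epithelial markers, Epcam stood at 8.40 and 8.38 in confluent control, against 6.98 and 7.30 in low-density control, while the other 4 lay below the median gene. Their part in the falls was not tested.

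Promoter windows are shown for the 4 genes with the largest falls among those with a window, as the sequence from which such genes start, beside Ipo13, the 1 gene that rose. RefSeq windows on build GRCm38.p6, from 250 bases before to 50 after a gene's start, were matched for 41 of the 49 genes by symbol. Capitals mark matches to any of 5 motifs on either strand. The motif GGAATG is the core of Tead sites, CACGTG the E-box read by Myc, CCAAT the box read by NF-Y, TTCCCGC an E2F site and TTTGAA the cell cycle homology region. The windows lie at chr15:81729870-81730169 on the minus strand (Rangap1), chr4:132345701-132346000 on the minus strand (Rcc1), chr4:107367797-107368096 on the plus strand (Ndc1), chr11:106999476-106999775 on the minus strand (Kpna2) and chr4:117914950-117915249 on the minus strand (Ipo13), and each is printed 5′ to 3′ on the gene's strand.
Rangap1: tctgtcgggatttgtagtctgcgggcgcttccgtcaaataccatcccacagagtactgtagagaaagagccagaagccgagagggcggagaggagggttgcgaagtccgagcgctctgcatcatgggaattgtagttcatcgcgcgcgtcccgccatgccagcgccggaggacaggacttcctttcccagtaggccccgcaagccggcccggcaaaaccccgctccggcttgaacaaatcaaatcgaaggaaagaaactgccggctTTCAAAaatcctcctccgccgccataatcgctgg
Rcc1: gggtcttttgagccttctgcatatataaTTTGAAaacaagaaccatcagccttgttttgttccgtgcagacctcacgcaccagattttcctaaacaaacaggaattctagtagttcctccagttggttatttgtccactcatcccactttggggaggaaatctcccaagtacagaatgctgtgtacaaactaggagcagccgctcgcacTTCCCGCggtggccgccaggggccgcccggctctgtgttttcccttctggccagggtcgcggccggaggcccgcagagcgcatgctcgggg
Ndc1: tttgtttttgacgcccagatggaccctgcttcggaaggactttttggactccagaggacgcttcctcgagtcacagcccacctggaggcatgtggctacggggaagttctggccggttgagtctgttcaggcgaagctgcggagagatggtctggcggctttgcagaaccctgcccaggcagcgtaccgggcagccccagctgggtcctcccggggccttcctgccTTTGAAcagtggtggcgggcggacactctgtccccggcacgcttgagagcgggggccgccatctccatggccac
Kpna2: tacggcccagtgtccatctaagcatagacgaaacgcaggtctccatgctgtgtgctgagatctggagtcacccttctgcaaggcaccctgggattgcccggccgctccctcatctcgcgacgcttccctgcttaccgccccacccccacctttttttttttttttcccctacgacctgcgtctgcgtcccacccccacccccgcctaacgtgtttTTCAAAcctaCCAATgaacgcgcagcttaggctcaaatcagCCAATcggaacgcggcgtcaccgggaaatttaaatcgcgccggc
Ipo13: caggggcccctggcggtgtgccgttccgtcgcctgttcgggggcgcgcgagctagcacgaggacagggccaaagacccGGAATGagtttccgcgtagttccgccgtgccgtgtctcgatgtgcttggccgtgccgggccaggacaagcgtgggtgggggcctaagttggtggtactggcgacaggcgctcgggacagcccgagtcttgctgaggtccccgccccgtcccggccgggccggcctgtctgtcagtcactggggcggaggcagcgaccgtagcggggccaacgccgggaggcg

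The letters TTTGAA or their reverse complement lay in the 4 windows printed for genes that fell, which were picked for their falls, but in 9 of all 33 windows of genes lower with density and in those of Kpna7 and Tnpo2, which were not called. The window of Ipo13 held GGAATG, as did those of Nup160 and Xpo6, which fell, and of Nup210. Over the 41 windows, 11 held TTTGAA (26.8%, against 18.1% of 27025 windows of all genes), 9 held CACGTG (22.0%, against 7.24%) and 6 held TTCCCGC (14.6%, against 4.66%). CCAAT lay in 20 (48.8%, against 37.9%) and GGAATG in 4 (9.76%, against 14.6%). The 27025 windows include genes not on the arrays and were not matched to these genes in level, so the shares are not of like sets. The 9 genes with CACGTG were Ipo4, Ipo7, Nup54, Nup93, Nup188, Ran, Xpot, Ranbp2 and Tnpo2, of which the first 7 fell with density, as did 33 of all 41 genes with a window. A match describes the letters of the window and is not a site of binding.

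The repressor fusion was compared with control under the same low-density label. For Tead2-EnR cells that label is a share of their own confluency, so it does not fix the number of cells per area. A difference in absolute density between these 2 groups was not tested. Tead2-EnR cells had lower levels of nearly the whole set. Of the 49 genes 43 were called lower and 0 higher, against 18.1% of all genes called lower, 20.3% called higher and 38.4% called either way. By unadjusted p below 0.05, limma gave 44 lower and 0 higher, against 3990 lower and 4250 higher of all 18193 genes. Among the 9096 genes above the median level 61.9% were called either way and 29.2% lower. The median log2 fold change was -0.52 over the 49 genes and -0.01 over all genes. Both this comparison and the density comparison rest on the same low-density control arrays.

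Rcc1 had the largest fall with Tead2-EnR. It stood at 9.09 and 9.04 in Tead2-EnR cells, against 10.21 and 10.28 in low-density control, a 2.27-fold fall (log2 fold change -1.18, SE 0.07, limma adjusted p = 9.4e-07). The other genes of the Ran cycle fell as well, with Rangap1 at -0.88, Ranbp1 at -0.57, Ranbp2 at -0.37 and Ran at -0.34. Xpo4, an exportin of translation and transcription factors, stood at 7.76 and 7.90 in Tead2-EnR cells, against 8.82 and 8.71 in low-density control (difference -0.93, SE 0.11). Nup43 stood at 9.14 and 9.13 in Tead2-EnR cells, against 10.07 and 10.05 in low-density control (difference -0.93). In each of these genes the 2 groups did not overlap, but Rcc1, Xpo4 and Nup43 were picked as the largest falls. How many of all genes did not overlap was not counted.

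By role, the 7 Y complex and 4 inner ring genes of the naming rule, both channel genes, both basket genes and all 7 exportins fell, as did 10 of 11 import receptors. Of the other Y complex genes Seh1l (-0.48) and Ahctf1 (-0.47) fell, and Sec13 (-0.18) was not called. Nup205 was at -0.86, Nup54 at -0.79, Nup153 at -0.76, Ndc1 at -0.82, Xpot at -0.85, Ipo7 at -0.80 and Ipo5 at -0.74. Of importin alpha genes, Kpna2 (-0.45), Kpna1 (-0.39) and Kpna3 (-0.38) fell, while Kpna4 (-0.09), Kpna6 (-0.07) and Kpna7 (-0.02) were not called. Ipo9, Nup88 and Nup210 were not called either. The other 4 genes not called with density, Ranbp2, Tnpo1, Tnpo2 and Xpo7, were called lower here, but the difference between the 2 comparisons was not tested. Tnpo1 stood at 9.94 and 9.87 in Tead2-EnR cells, against 10.46 and 10.39 in low-density control, a difference of -0.52, and all 3 of its probe sets were called lower. For Ranbp2 only the probe set used here was called, and the other 3 were at -0.14, -0.16 and 0.0025.

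Ipo13, the gene that rose with density, stood at 10.48 and 10.47 in Tead2-EnR cells and 10.61 and 10.69 in low-density control, and was called lower (-0.17). Beside these results, the spike-in probe sets averaged 7.95 ± 0.03 in Tead2-EnR cells and 7.65 ± 0.08 in low-density control (log2, SD, n = 2), and the gap between the ends of the transferrin receptor control was 1.12 ± 0.02 in Tead2-EnR cells and 0.98 ± 0.05 in low-density control. Epcam stood at 7.79 and 7.78 in Tead2-EnR cells, against 6.98 and 7.30 in low-density control. The other epithelial markers lay below the median gene and did not rise with it. Cdh1 stood at 5.65 and 5.34 in Tead2-EnR cells, against 5.67 and 5.87 in low-density control. Krt8 stood at 5.99 and 5.96 in Tead2-EnR cells, against 6.18 and 6.08 in low-density control. For Krt18 and Krt19 the groups overlapped. The part of the array controls and of Epcam in the falls was not tested.

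**Figure D2:**
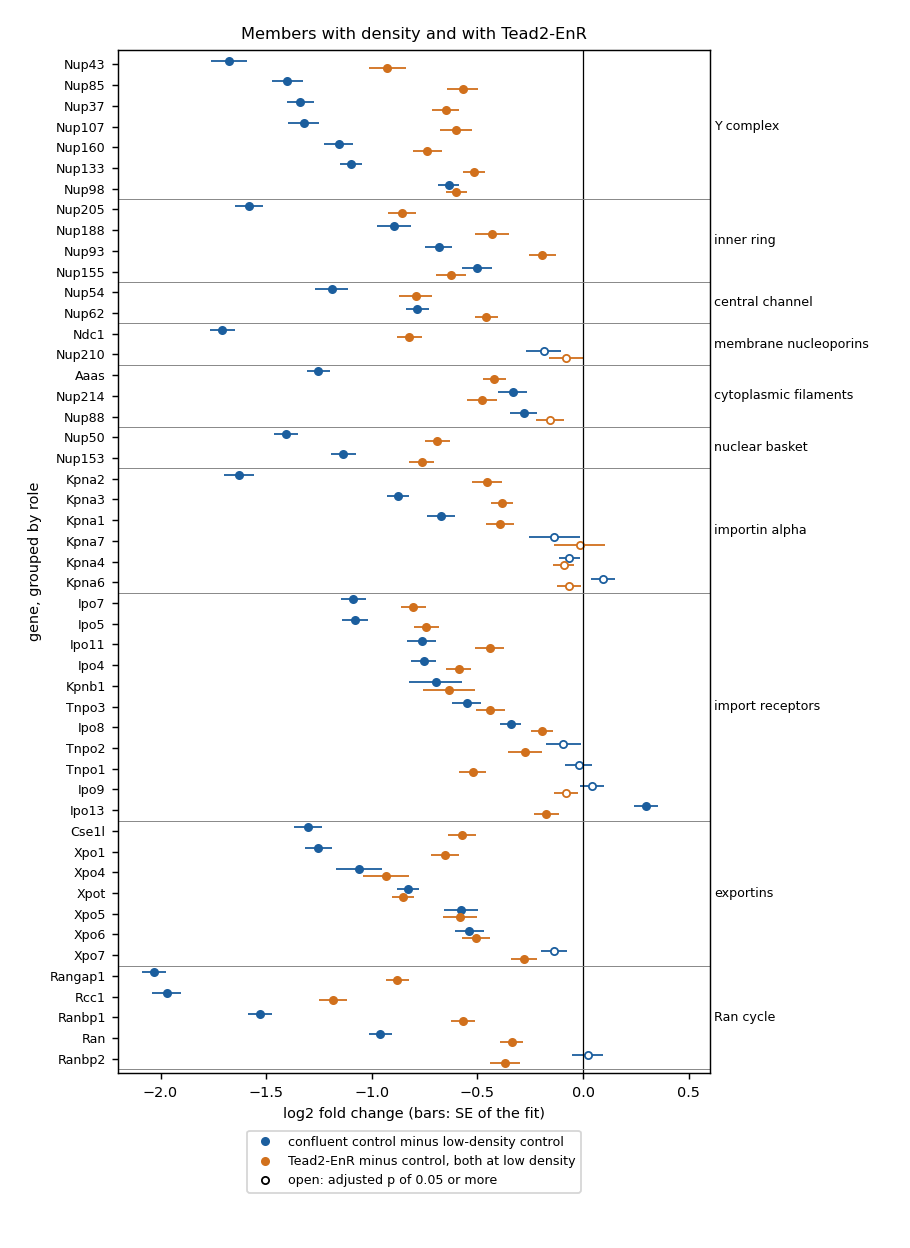
Log2 fold changes (x axis, bars SE of the fit) of the 49 genes, grouped by role down the page, for confluent control minus low-density control (blue) and Tead2-EnR minus control at low density (orange), with filled points at an adjusted p below 0.05. Both sets of points lie mostly left of 0, with medians of -0.83 and -0.52. Rangap1 is at -2.03 and -0.88, and Tnpo1 and Ranbp2 have a blue point near 0 and an orange one at -0.52 and -0.37.

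Cells with Yap at high density were then set against both controls, since neither control had their density. Against low-density control, 44 of the 49 genes were called lower and 0 higher (20.2% of all genes were called lower, 22.2% higher and 42.4% either way), with a median of -0.82. By unadjusted p below 0.05, limma gave 44 lower and 1 higher, against 4225 lower and 4514 higher of all 18193 genes. Ndc1 stood at 8.92 and 8.96 in Yap cells, against 10.86 and 10.85 in low-density control, a difference of -1.91. Rangap1 was at -1.87 and Nup43 at -1.64. Ipo13, Tnpo1, Kpna6, Kpna7 and Nup210 were the 5 genes not called. The spike-in probe sets averaged 7.87 ± 0.08 in Yap cells and 7.65 ± 0.08 in low-density control (log2, SD, n = 2), and the gap between the ends of the transferrin receptor control was 1.31 ± 0.07 in Yap cells and 0.98 ± 0.05 in low-density control. Their part was not tested.

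Against confluent control the differences of Yap cells were small and went both ways. Of the 49 genes 9 were called higher and 9 lower (36.7%), against 11.7% of all genes called higher, 14.5% lower and 26.1% either way, and the median was 0.01. Among genes above the median level 44.2% were called, a larger share than among the 49. No difference reached 1.5-fold. With 1 array left out the genes called numbered 9 or 11 in place of 18, at 9 without the second Yap array or the first confluent control array.

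Kpna2 and 3 of the 5 Ran cycle genes were among those higher. Kpna2 stood at 11.48 and 11.49 in Yap cells, against 11.00 and 11.14 in confluent control (difference 0.41, SE 0.07, limma adjusted p = 0.0021). Rcc1 stood at 8.61 and 8.72 in Yap cells, against 8.22 and 8.33 in confluent control (difference 0.39), and Ranbp1 at 11.71 and 11.73 in Yap cells, against 11.38 and 11.43 in confluent control (difference 0.32). Ran was at 0.31, with 4 of its 6 probe sets called higher. These genes lay between the levels of the 2 controls and nearer the confluent one. Ipo4 (0.27), Kpna1 (0.25), Nup50 (0.23), Ipo7 (0.22) and Nup37 (0.21) were also higher.

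The genes lower in Yap cells than in confluent control were led by Nup155, which stood at 8.42 and 8.49 in Yap cells, against 8.83 and 8.91 in confluent control (difference -0.41). Ranbp2 stood at 9.77 and 9.57 in Yap cells, against 10.09 and 10.01 in confluent control (difference -0.38). A second probe set of high level read it lower too (-0.36), but one of low level read it higher (0.52). Tnpo2 stood at 8.90 and 8.84 in Yap cells, against 9.34 and 9.09 in confluent control (difference -0.35). Ipo9 (-0.31), Aaas (-0.30), Xpo7 (-0.22), Ndc1 (-0.21), Kpna6 (-0.19) and Nup133 (-0.17) were lower as well. Of the 18 calls, 5 held under every alternative of processing counted, and Kpna6 and Ranbp2 changed sign under at least 1. Of Xpo7, 2 of 8 probe sets were called lower and 1 of low level higher.

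The same controls served for Tead2-VP16 at high density. Against low-density control 44 of the 49 genes were called lower and 0 higher (19.5% of all genes were called lower, 23.4% higher and 42.9% either way), with a median of -0.73. By unadjusted p below 0.05, limma gave 44 lower and 0 higher, against 4011 lower and 4753 higher of all 18193 genes. Ndc1 stood at 8.98 and 8.89 in Tead2-VP16 cells, against 10.86 and 10.85 in low-density control (difference -1.92). Rangap1 was at -1.91 and Nup205 at -1.64. The spike-ins averaged 7.75 ± 0.05 in Tead2-VP16 cells and 7.65 ± 0.08 in low-density control, and the transferrin receptor gap was 1.23 and 1.23 in Tead2-VP16 cells, against 1.02 and 0.94 in low-density control. Their part was not tested.

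Against confluent control, 9 genes were higher and 9 lower with Tead2-VP16 at high density (36.7%, against 13.2% of all genes called higher, 13.7% lower and 26.9% either way, and 45.4% of genes above the median level). Rcc1 stood at 8.72 and 8.59 in Tead2-VP16 cells, against 8.22 and 8.33 in confluent control (difference 0.38). Nup50 stood at 9.47 and 9.50 in Tead2-VP16 cells, against 9.11 and 9.11 in confluent control (difference 0.37), and Kpna1 at 9.09 and 9.06 in Tead2-VP16 cells, against 8.76 and 8.70 in confluent control (difference 0.35). In none of these genes did the groups overlap, but they were picked as the largest rises, and overlap was not counted over all genes. Ran (0.30), Ranbp1 (0.30), Ipo4 (0.26), Ipo7 (0.24), Nup37 (0.24) and Kpna2 (0.22) were higher too. Nup155 stood at 8.29 and 8.29 in Tead2-VP16 cells, against 8.83 and 8.91 in confluent control, the largest fall of this comparison among the 49 genes (-0.58, SE 0.07). Xpo7 stood at 8.82 and 8.78 in Tead2-VP16 cells, against 9.29 and 9.22 in confluent control (difference -0.45), and Ipo9 at 10.28 and 10.22 in Tead2-VP16 cells, against 10.65 and 10.60 in confluent control (difference -0.38). Aaas (-0.34), Tnpo2 (-0.28), Kpna6 (-0.25), Ipo13 (-0.25), Ranbp2 (-0.25) and Ndc1 (-0.21) were lower as well. Of the 18 calls, 7 held under every alternative counted, and Kpna6 changed sign under at least 1.

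Yap and Tead2-VP16 were compared directly at the same density label. None of the 49 genes was called by limma, against 0.934% of all genes called higher, 1.08% lower and 2.02% either way. At an unadjusted limma p below 0.05 were 2554 of all 18193 genes, 1016 of them higher and 1538 lower with Yap. Of the 49 genes 6 were, 4 of them higher and 2 lower with Yap. The smallest adjusted p was that of Xpo7 (0.101), which stood at 8.98 and 9.09 in Yap cells and 8.82 and 8.78 in Tead2-VP16 cells. The 95% intervals of the difference lay within 1 on the log2 scale for all 49 genes and within 0.5 for 46. The lowest bound was -0.59 for Kpna7 and the highest 0.53 for Xpo4. These intervals bound the difference and do not show that the constructs act alike.

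**Figure D3:**
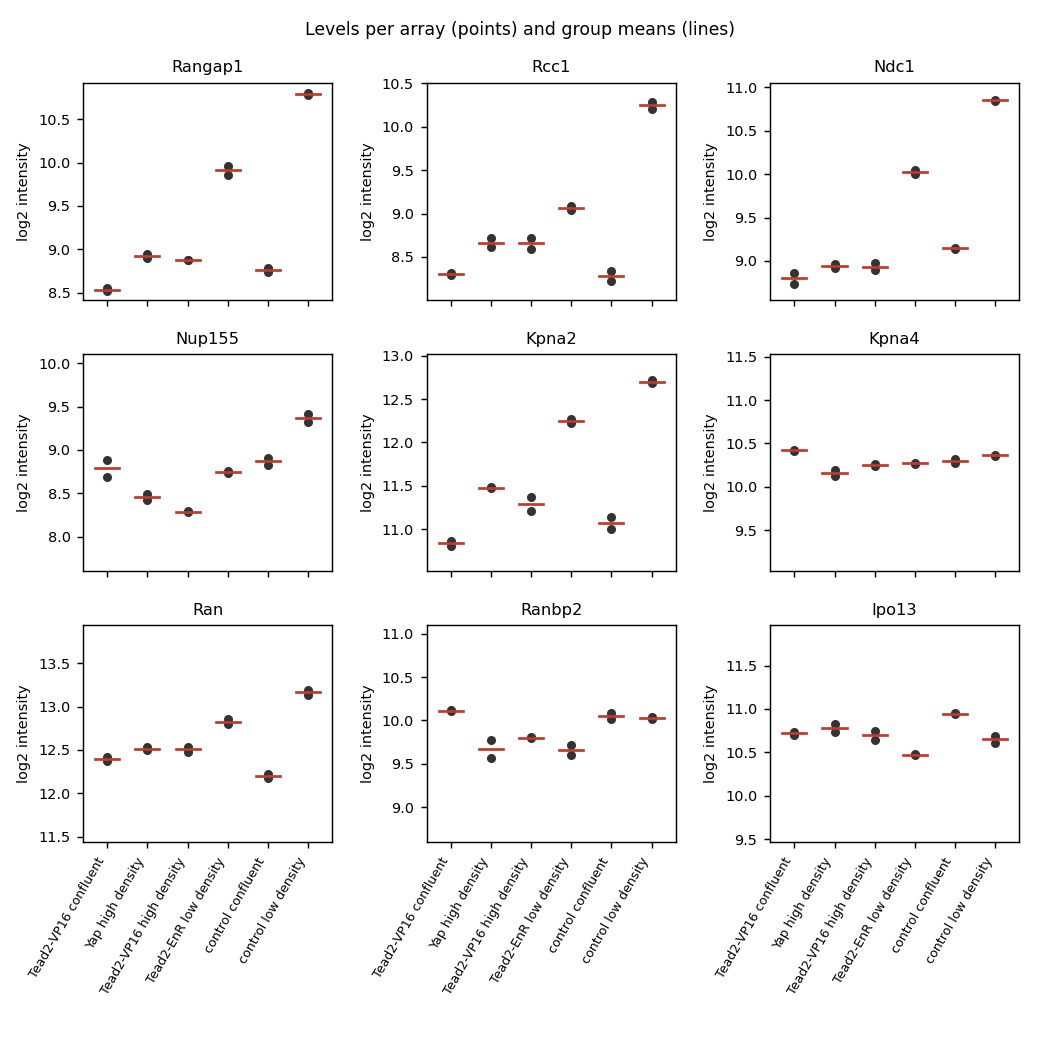
Log2 intensity of 9 genes on each array (points) with the group mean (red line) in the 6 groups, every panel spanning 2.5 log2 units. Rangap1, Rcc1, Ndc1 and Kpna2 are highest in low-density control, intermediate in Tead2-EnR cells and lowest in the groups at confluency or high density, while the group means of Kpna4, Ranbp2 and Ipo13 lie within 0.5 of each other.

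The activator fusion was set against control at complete confluency. Few of the 49 genes differed: 3 were called higher and 4 lower (14.3%, against 5.06% of all genes called higher, 4.92% lower and 9.98% either way, and 16.2% of genes above the median level), and the median was 0.02. Ndc1 stood at 8.86 and 8.74 in Tead2-VP16 cells, against 9.15 and 9.14 in confluent control, the largest fall of this comparison among the 49 (-0.35, SE 0.06, limma adjusted p = 0.0060). Ipo9 stood at 10.29 and 10.39 in Tead2-VP16 cells, against 10.65 and 10.60 in confluent control (difference -0.29), Ipo13 at 10.73 and 10.71 in Tead2-VP16 cells, against 10.94 and 10.95 in confluent control (difference -0.23), and Rangap1 was at -0.22.

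Kpnb1, Tnpo1 and Xpot were higher in Tead2-VP16 cells at confluency. Kpnb1 stood at 11.97 and 11.73 in Tead2-VP16 cells, against 11.45 and 11.23 in confluent control (difference 0.51, SE 0.13). Its other 3 probe sets were at -0.01, -0.13 and 0.07 and not called. Tnpo1 stood at 10.62 and 10.71 in Tead2-VP16 cells, against 10.45 and 10.36 in confluent control (difference 0.26), but a second probe set of it was called lower (-0.24). Xpot stood at 11.31 and 11.25 in Tead2-VP16 cells, against 11.07 and 11.07 in confluent control (difference 0.21). The gap between the ends of the transferrin receptor control was 1.54 and 1.46 (log2) in these cells and 1.17 and 1.44 in confluent control, and its part was not tested. In place of 7, the genes called numbered 1 when the first confluent control array was left out, 2 when its second was, 1 when the first Tead2-VP16 array was and 3 when its second was. The split of 3 higher and 4 lower became 7 and 2 with arrays centred on their medians and 1 and 5 with quantile normalization repeated.

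Within Tead2-VP16 cells, complete confluency was compared with high density. Of the 49 genes 10 were higher and 7 lower at complete confluency (34.7%, against 12.1% of all genes called higher, 12.4% lower and 24.5% either way, and 40.8% of genes above the median level). Kpna2 stood at 10.81 and 10.87 in confluent Tead2-VP16 cells, against 11.21 and 11.38 at high density (difference -0.46). Rcc1 stood at 8.29 and 8.31 in confluent Tead2-VP16 cells, against 8.72 and 8.59 at high density (difference -0.35), and Rangap1 at 8.52 and 8.55 in confluent Tead2-VP16 cells, against 8.88 and 8.87 at high density (difference -0.34). Nup50 (-0.26), Kpna1 (-0.25), Ranbp1 (-0.24) and Cse1l (-0.24) were the other genes that fell.

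In the other direction, Nup155 stood at 8.69 and 8.88 in confluent Tead2-VP16 cells, against 8.29 and 8.29 at high density (difference 0.50). Tnpo1 stood at 10.62 and 10.71 in confluent Tead2-VP16 cells, against 10.28 and 10.34 at high density (difference 0.35), and Kpnb1 at 11.97 and 11.73 in confluent Tead2-VP16 cells, against 11.30 and 11.33 at high density (difference 0.54). The call of Kpnb1 rests on 1 probe set, and its most variable one was at -0.31 and not called. Xpo7 (0.34), Nup160 (0.31), Ranbp2 (0.31), Aaas (0.28), Nup98 (0.24), Nup88 (0.23) and Kpna4 (0.17) were also higher. The transferrin receptor gap was 1.54 and 1.46 in confluent Tead2-VP16 cells, against 1.23 and 1.23 at high density, and its part was not tested. The total of 17 fell to 9 without the first Tead2-VP16 array at high density and to 10 without the first at confluency.

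**Figure D4:**
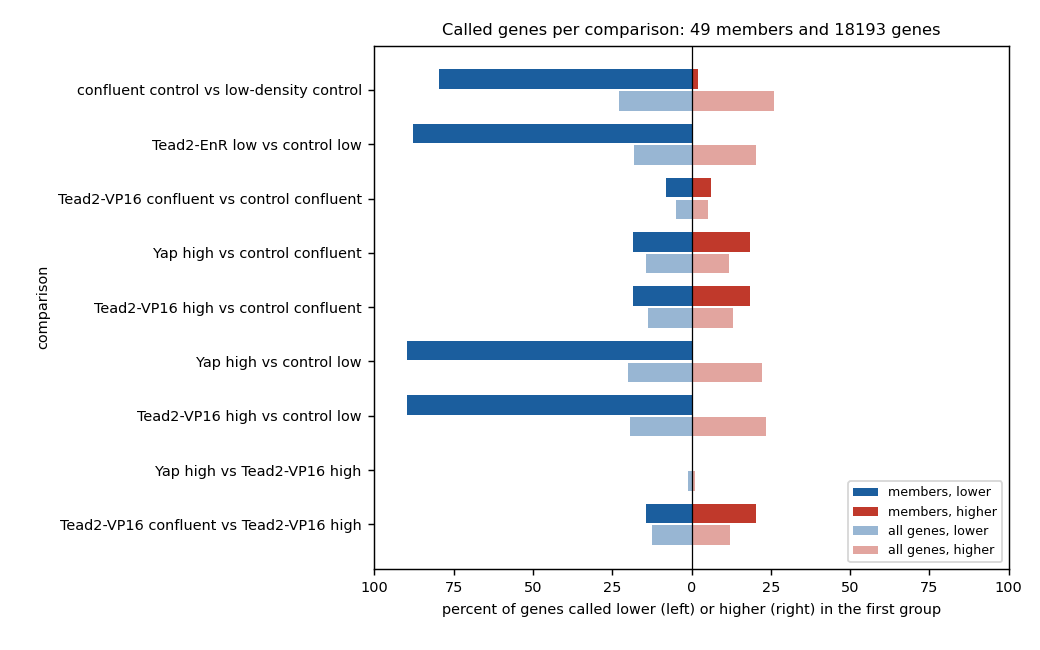
Share of the 49 genes (dark) and of all 18193 genes (pale) called lower (left of 0) and higher (right of 0) in the first-named group of each of 9 comparisons, in percent. The dark bars reach 79.6%, 87.8%, 89.8% and 89.8% on the lower side in the 4 comparisons with low-density control, and lie much closer to the pale bars in the others.

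Genes of nuclear transport outside the naming rule were taken from a list of 28 further pore components, adaptors and mRNA export factors, of which 26 were measured. With density 19 fell and 2 rose (73.1% and 7.69%, against 22.8% of all genes called lower and 26.1% higher), and the median was -0.45. The falls were led by Ddx39a, an RNA helicase (-1.78), Alyref, which couples mRNA to its export receptor (-1.71), and Pom121, a transmembrane nucleoporin (-1.35). Nxt2, a cofactor of the export receptor, rose by 0.44 and the helicase Ddx39b by 0.24. Ddx39a averaged 10.38 in confluent control and 12.16 in low-density control, and its paralog Ddx39b 12.08 in confluent control and 11.84 in low-density control.

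The same list fell in 17 cases and rose in 1 with Tead2-EnR (65.4% and 3.85%, against 18.1% of all genes lower and 20.3% higher), with a median of -0.32 and with Ddx39a at -0.81, Pom121 at -0.80, Alyref at -0.67 and Nxt2 at 0.69. In Yap cells against confluent control 9 of the 26 were higher and 3 lower (34.6% and 11.5%, against 11.7% and 14.5% of all genes). Either way 46.2% of the 26 were called, against 44.2% of genes above the median level. The rises were led by Ddx39a (0.62), Alyref (0.41) and Thoc6 (0.37), and the falls by Ddx39b (-0.34), Thoc7 (-0.27) and Mcm3ap (-0.18). Against low-density control 16 of the 26 were lower with Yap and 0 higher (61.5% lower, against 20.2% of all genes lower and 22.2% higher). Neither control had the density of these cells, so construct and density cannot be told apart. In Tead2-VP16 cells at high density 11 exceeded their level in confluent control and 3 lay below it (42.3% and 11.5%, against 13.2% and 13.7% of all genes). Either way 53.8% were called, against 45.4% of genes above the median level. Against low-density control 17 were lower with Tead2-VP16 at high density and 1 higher (65.4% and 3.85%, against 19.5% and 23.4% of all genes). Density and construct cannot be told apart here either. At complete confluency 1 was higher and 1 lower with Tead2-VP16 (3.85% each, against 5.06% and 4.92% of all genes). Between Yap and Tead2-VP16 at high density, limma called none of the 26, against 2.02% of all genes. Of the 26, 2 had an unadjusted limma p below 0.05, as did 2554 of all 18193 genes. Nupl1, the third channel nucleoporin, whose symbol does not match the rule, averaged 9.09 in confluent control and 10.14 in low-density control (difference -1.05), and was at -0.48 with Tead2-EnR. Nupl2, a filament nucleoporin, was called in neither comparison (-0.18 and 0.08). Both were added after the values of the 49 genes were seen.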

How the data were processed

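Transcript levels of NIH3T3 cells were measured on 12 Affymetrix arrays in 6 groups of 2, assigned from the sample titles. The deposited values are probe set intensity summaries from RMA, which the submitters' processing notes name with no version. They ran from 3.77 to 25980 on a linear scale with array medians of 51.9 to 53.7, so log2 was taken. No detection calls were used. Precision depends on the 2 arrays of each group.

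Of 45101 probe sets, 34945 had 1 gene symbol in GEO's platform annotation, and the one with the highest mean stood for each of 18193 genes. Entrez identifiers of 34741 probe sets matched a GRCm38.p6 gene table, which changed 0 symbols. One limma model (version 3.58.1, R 4.3.3) with a mean for each group covered all arrays, and eBayes added 3.45 prior to 6 residual degrees of freedom. P-values are two-sided, with Benjamini-Hochberg adjustment over all genes within each of 9 comparisons. Log2 fold changes are the first group minus the second. The fit was tested on simulated data. Figures used matplotlib 3.10.9 in Python 3.11.15.

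Genes and lists were chosen with earlier results of these data known. Values for each array were given, in each of 10 roles, for the genes with the largest and smallest change with density, and in each other comparison for the 3 largest rises and falls called. Alternatives were another choice of probe set, a filter on dim genes, a replicate block, other priors and scalings, log2(value + 16), only the arrays compared, a 1.5-fold minimum, and each array left out.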

Additional observations from a re-analysis of the deposited data

How the results depend on the processing

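The counts of genes called with density (40), in Yap cells (44) and in Tead2-VP16 cells at high density (44) against low-density control stayed within 1.5 times under every alternative run. With Tead2-EnR 43 became 20 with a 1.5-fold minimum, which left 0 genes for Yap, for Tead2-VP16 at high density and for Tead2-VP16 at complete confluency, each set against confluent control, and for the step within Tead2-VP16 cells. With Tead2-VP16 at complete confluency, 7 became 14 with a filter on dim genes, 13 with a trend and robust prior, 13 with log2(value + 16) and 0 with only the arrays compared. That last fit gave 10 in place of 18 for Yap against confluent control and 11 in place of 17 for the step within Tead2-VP16 cells. Between Yap and Tead2-VP16, 0 became 1 with the filter, with probe sets averaged per gene, with the most variable probe set and with log2(value + 16), and 2 with the trend and robust prior. The cause was not tested beyond the alternatives' own construction.

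With 1 array left out, the counts ran from 40 to 41 for density, 39 to 40 for Tead2-EnR, 1 to 3 for Tead2-VP16 at complete confluency, 9 to 11 for Yap and 12 to 13 for Tead2-VP16 at high density against confluent control, 43 to 44 and 42 to 43 for the same cells against low-density control, 0 to 0 between them, and 9 to 14 for the step within Tead2-VP16 cells. The lone array of a group was then assumed to vary like the others. The sample titles do not say what arrays of the same replicate number share. Deviations of same-numbered arrays from their group means correlated between -0.06 and 0.10 over 15 pairs of groups, which does not settle it. With the replicate block, counts in the order of the comparisons above were 40 for density, 42 for Tead2-EnR, 5 for Tead2-VP16 at complete confluency, 17 for Yap and 19 for Tead2-VP16 at high density with the confluent reference, 44 and 43 with the low-density one, 0 and 18.

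The 53 single gene results were each read under several of the alternatives, which gave 688 readings in all. Of these readings 625 kept direction and side of the threshold, 45 lost and 8 gained a call, and 10 changed sign. With density, and not called before or after, Tnpo1 was at 0.0499 with quantile normalization repeated and ran from -0.0612 to 0.0206 with 1 array left out, Kpna4 at 0.0044 with quantile normalization repeated, and Ranbp2 at -0.0184 with arrays centred and from -0.0151 to 0.0582 with 1 array left out. On the most variable probe set Kpnb1 was at -0.13 with Tead2-VP16 at complete confluency and -0.31 for the step within Tead2-VP16 cells. Ranbp2 in Yap cells against confluent control was at 0.0445 on the mean of its probe sets and 0.40 on the most variable one. All 40 genes called with density were called in the same direction under every alternative apart from the filter and the 1.5-fold minimum, for which this was not counted. For Tead2-EnR that held for 36 of 43, and for Tead2-VP16 at complete confluency for 0 of 7.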
